A study of Rattus norvegicus with 9 samples.

Results

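The acute-phase genes Saa3, Lcn2 and Lrg1 were followed across the cardiac libraries of a rat heart failure (HF) study, together with every listed gene whose symbol starts with Saa and a digit, which added Saa1 and Saa2. These 5 genes were found among 5760 genes listed in either of 2 deposited tables. All 5 were among the 4288 genes of the table of Cal and Model libraries, and 3 of them (Saa3, Lcn2 and Lrg1) were among the 2458 genes of the table of Cal and Con libraries. The genes were chosen by their levels and differences in these same libraries, so their own values are given as a description without a test.

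Hearts of 9 male Sprague-Dawley rats were sequenced, with 3 animals picked at random from each of 3 groups. The group labelled Model had HF after the left anterior descending coronary artery was tied off, and received distilled water. The group labelled Cal had the same operation and received calycosin, an isoflavone, at 80 mg/kg per day for 28 days. The group labelled Control, whose columns are headed Con, had a sham operation without tying the artery and received distilled water.

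The group names of the tables conflict, and this bears on every direction given here. In the table of Cal and Model libraries the authors' mean column headed Cal averages the samples headed Model for 4288 of 4288 genes, and the mean column headed Model averages those headed Cal. In the other table the mean column headed Model again averages the samples headed Cal for 2458 of 2458 genes, and Model heads none of its sample columns, although the table as a whole is named for Model against Con. The recovered reads of the Cal columns were identical in both tables for 986 of 986 shared genes, so both comparisons rest on the same 3 Cal libraries. Libraries are named by their sample headings throughout. By the mean columns, Cal and Model would change places in every sentence.

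The genes are named by mouse Ensembl identifiers although the animals were rats. How rat reads came to be counted on these entries is not known, so the values of genes with close copies in mouse are uncertain. The values are normalized counts, that is, reads per gene over a size factor of each library. These factors were 0.820 to 1.17 for Cal and Model and 0.950 to 1.07 for Cal and Con. Reads on the listed genes ranged from 2860826 to 3998471 per library in the first table and from 3270460 to 4659882 in the second, and the full depth is unknown. A gene was called when limma's test on log2(normalized count + 1) gave a Benjamini-Hochberg adjusted p under 0.05 and the log2 fold change lay beyond 1. Because the authors deposited a selected set of genes only, called genes were common. The set was not cut at the log2 fold change limit of 1 in the study's methods, since Lrg1 was listed at 0.77 in Cal over Con. In Model over Cal 60.1% of listed genes were called, 31.6% as higher and 28.4% as lower in Model, and in 98.2% the groups did not overlap. In Cal over Con 29.0% were called, 18.0% as higher and 10.9% as lower in Cal, and in 97.4% the groups did not overlap. The median log2 fold change of all listed genes was 0.52 in Model over Cal and 0.37 in Cal over Con. Quantile normalization moved these medians to 0.10 and -0.04 and the calls to 1175 higher and 1393 lower, and to 348 higher and 387 lower, against 1356 and 1219, and 443 and 269, as deposited. Median-ratio scaling gave medians of 0.23 and 0.09, with 1047 higher and 1646 lower, and 342 higher and 447 lower.

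The acute phase is the change in plasma proteins that follows tissue injury or infection. Interleukin 6 acts through STAT3, while interleukin 1 and tumour necrosis factor act through NF-kB, and C/EBP factors take part in both routes. The liver is the main source of the circulating proteins, but Saa3, Lcn2 and Lrg1 are also made outside it, by macrophages, neutrophils, epithelial or endothelial cells. Serum amyloid A proteins are apolipoproteins of high-density lipoprotein. Lcn2 encodes lipocalin 2, which binds bacterial siderophores and so withholds iron, and Lrg1 encodes a secreted leucine-rich glycoprotein that modifies TGF-beta signalling through endoglin.

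The regulatory sequence next to each start is shown because the named inducers act on such promoters. The sequences are the 250 bases upstream of the rat gene start in RefSeq, build GRCr8, on the minus strand, and Saa3, Lcn2 and Lrg1 were matched by symbol. Saa1 and Saa2 had no entry. The windows are chr1:106358431-106358680 for Saa3, chr3:36081781-36082030 for Lcn2 and chr9:1036932-1037181 for Lrg1. Capitals mark matches on either strand to the NF-kB consensus or to the C/EBP pattern TTNNGNAA. Each is printed 5′ to 3′ and ends at the base before the start.
Saa3: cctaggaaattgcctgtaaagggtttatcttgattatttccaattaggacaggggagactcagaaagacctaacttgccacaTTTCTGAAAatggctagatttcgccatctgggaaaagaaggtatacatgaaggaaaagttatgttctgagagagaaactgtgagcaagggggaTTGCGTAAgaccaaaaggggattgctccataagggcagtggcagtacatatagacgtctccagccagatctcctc
Lcn2: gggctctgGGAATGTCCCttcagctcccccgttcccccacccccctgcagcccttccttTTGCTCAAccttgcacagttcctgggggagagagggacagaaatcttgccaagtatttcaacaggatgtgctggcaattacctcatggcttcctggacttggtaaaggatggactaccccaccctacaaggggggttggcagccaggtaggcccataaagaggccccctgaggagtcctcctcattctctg
Lrg1: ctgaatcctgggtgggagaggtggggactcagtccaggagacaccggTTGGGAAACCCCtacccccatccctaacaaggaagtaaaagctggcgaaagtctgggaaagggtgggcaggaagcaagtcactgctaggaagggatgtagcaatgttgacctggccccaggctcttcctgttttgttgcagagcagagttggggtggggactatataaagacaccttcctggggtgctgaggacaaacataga

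The Saa3 window held C/EBP matches at positions -75 to -68 and, as an overlapping pair on opposite strands, from -168 to -160, and no NF-kB match. The Lcn2 window held an NF-kB match at positions -242 to -233 and a C/EBP match from -191 to -184. In the Lrg1 window the NF-kB match at positions -201 to -192 overlapped a C/EBP match from -203 to -196. The STAT pattern TTCNNNGAA was in none of the 3 windows. Among 33469 rat promoter windows of the same length 6.33% held the NF-kB consensus, 37.2% the C/EBP pattern and 7.67% the STAT pattern, so a C/EBP match alone is frequent. A match describes letters only, and binding was not measured.

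Saa3 (ENSMUSG00000040026), the serum amyloid A gene expressed outside the liver in rodents, was at the limit of detection in the Con libraries and among the abundant transcripts of the Model libraries. It had 0, 0 and 1 reads in Con, 11, 50 and 39 reads in Cal and 13307, 9302 and 10720 reads in Model. The groups did not overlap in either table. In bulk tissue such as this, fewer cells of a type and less RNA per cell cannot be told apart. Normalized counts were 14370, 11344 and 10275 in Model against 10.1, 46.9 and 33.3 in Cal. The means of 11996 ± 2124 and 30.1 ± 18.6 (SD, n = 3 each) differed 398-fold, and the log2 fold change of 8.82 (SE 0.49) ranked 1st from the top of 4288 listed genes. In the table of Cal and Con, the Cal values were 11.3, 52.6 and 37.1 and the Con values were 0, 0 and 1.01. The ratio of 100 reads to 1 read gave a 104-fold difference with a 95% exact counting interval of 18.2 to 4136, which covers counting error only. The fitted log2 fold change there was 4.54 (SE 0.66), a value that depends on the pseudocount. The Cal 1 library was the lowest of its group. Without it the log2 fold change of Saa3 was 8.19 in Model over Cal and 5.16 in Cal over Con.

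Lcn2 (ENSMUSG00000026822), the lipocalin also known as neutrophil gelatinase-associated lipocalin, had the highest level per kilobase of the 5 genes in the Model libraries. The Model libraries held 27246, 28032 and 24834 normalized counts, and the Cal libraries 130, 379 and 295. The 3 Model values lay close together, while the Cal values spread widely, and no Cal library came near the Model range. The means were 26704 ± 1666 and 268 ± 127 (SD, n = 3 each), a 99.7-fold difference with a log2 fold change of 6.77 (SE 0.36). In the table of Cal and Con, the values were 145, 425 and 329 in Cal and 46.6, 34.4 and 73.9 in Con. All Cal libraries were above all Con libraries, and the lowest Cal library stood nearer to the highest Con library than to the other Cal libraries. The means were 299.7 ± 142 and 51.6 ± 20.2 (SD, n = 3 each), a 5.81-fold difference with a log2 fold change of 2.45 (SE 0.41). Lcn2 ranked 7th from the top of 4288 genes in Model over Cal and 171st of 2458 in Cal over Con.

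Lrg1 (ENSMUSG00000037095) had the highest Con level of the 3 genes listed there and the smallest differences. It had 8421, 8630 and 12255 normalized counts in Model and 560, 771 and 670 in Cal. The means of 9769 ± 2156 and 667 ± 105 (SD, n = 3 each) differed 14.7-fold, with a log2 fold change of 3.86 (SE 0.20) that ranked 88th of 4288. In the table of Cal and Con, it had 626, 864 and 747 in Cal and 460, 383 and 462 in Con. The groups did not overlap, but the means of 746 ± 119 and 435 ± 45.0 differed only 1.71-fold. The log2 fold change of 0.77 (SE 0.14) stayed under the limit of 1 and ranked 557th of 2458. Quantile normalization lowered it to 0.43 and median-ratio scaling to 0.49.

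Saa1 (ENSMUSG00000074115) and Saa2 (ENSMUSG00000057465), which in rodents encode the serum amyloid A proteins secreted mainly by the liver, were near the limit of detection. Saa1 had 15, 8 and 11 reads in Model and 0, 0 and 1 in Cal. Saa2 had 5, 11 and 12 reads in Model and 0, 1 and 0 in Cal. Every Model library was above every Cal library for both genes, at levels far below Saa3. The read ratio was 40.5 for Saa1 (34 reads against 1, 95% counting interval 6.79 to 1645) and 33.3 for Saa2 (28 reads against 1, interval 5.51 to 1363). The Saa genes are similar in sequence, so reads of one may have been counted for another, and the Saa1 and Saa2 values are uncertain beside the 33329 Model reads of Saa3. Neither gene was listed in the table of Cal and Con.

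**Figure D1:**
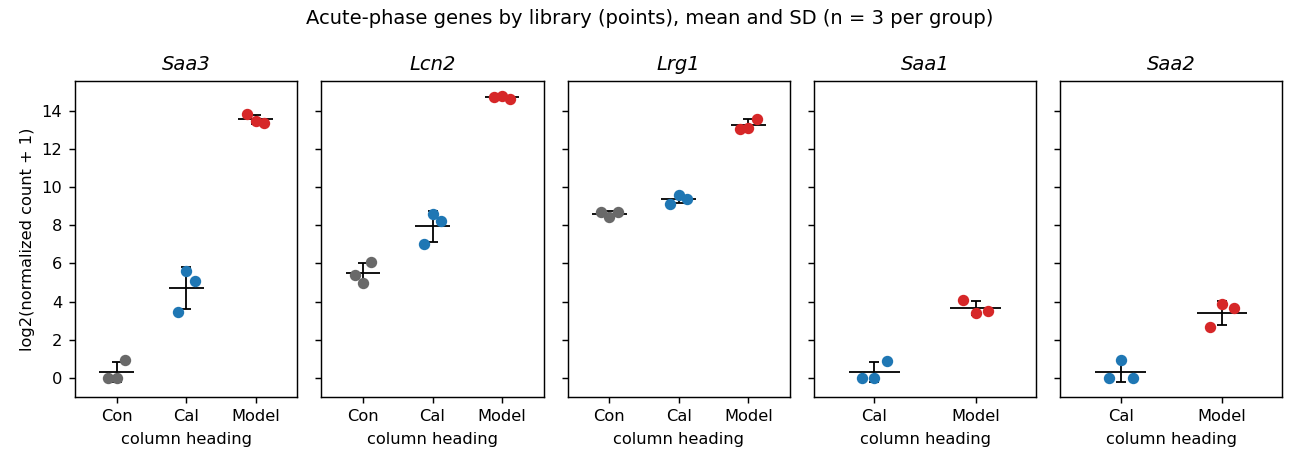
Levels of the 5 acute-phase genes by library, as log2(normalized count + 1) on the vertical axis and the heading of the sample column on the horizontal axis, with points for libraries, horizontal lines for means and bars for SD (n = 3 per group). Con values were brought to the scale of the Cal and Model table by a factor of 0.894. Saa3, Lcn2 and Lrg1 step up from Con to Cal and to Model without overlap, while Saa1 and Saa2 have no listed Con value and stay below 5 on this scale.

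All 5 members were called as higher in Model over Cal, beside 31.6% of listed genes, and 2 of the 3 listed members were called as higher in Cal over Con, beside 18.0%. Since the members were chosen on these contrasts, nothing is read from these counts. To set the 3 groups side by side, the Con values were multiplied by 0.894, the geometric mean of the size factor ratios of the shared Cal libraries, which were 0.892 to 0.897 in the single libraries. On this scale Lcn2 had 46.2 ± 18.1 normalized counts in Con, 268 ± 127 in Cal and 26704 ± 1666 in Model. Model over Con was 578-fold, a log2 difference of 9.21 (SE 0.32). Lrg1 had 389 ± 40.2 in Con, 667 ± 105 in Cal and 9769 ± 2156 in Model, with Model over Con at 25.1-fold, a log2 difference of 4.63 (SE 0.20). For Saa3 the single Con read gave Model over Con at 41142-fold with a counting interval of 7384 to 1.63e+06.

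The larger step lay between Cal and Model for all 3 genes on the log2(normalized count + 1) scale. It made up 66.7% of the log2 difference between Con and Model for Saa3, 73.4% for Lcn2 and 83.4% for Lrg1. At this pseudocount of 1, the order of the genes in this share is the reverse of their order by Cal over Con. The place of Saa3 in both orders rests on 1 Con read and depends on the pseudocount. Its log2 fold change in Cal over Con was 6.98 with a pseudocount of 0.1 and 1.95 with a pseudocount of 10. Scaling by the reads on shared genes instead lowered the log2 difference of Model and Con to 12.79 for Saa3, 8.38 for Lcn2 and 3.79 for Lrg1.

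The order of levels between genes changed with the group. Compared as mean normalized counts per kilobase of deposited gene length, Lcn2 led in Model with 10181, followed by Lrg1 with 6938 and Saa3 with 4603, and their library ranges did not overlap. The place of Lrg1 above Saa3 rests on these lengths, 1408 and 2606 bases, which belong to mouse gene entries. Without division by length Saa3 had the higher Model mean, 11996 against 9769, and the library ranges of these genes overlapped. The levels per kilobase are described next. Per kilobase, Lcn2, Lrg1 and Saa3 ranked 15th, 24th and 41st from the highest of 4288 listed genes, whose median was 57.4. Saa1 and Saa2 stood at 4.91 and 4.01 per kilobase, and their library ranges overlapped. In Cal the order was Lrg1 with 473, Lcn2 with 102 and Saa3 with 11.6, again without overlap, beside a median of 51.4. Saa3 thus moved from rank 3428 in Cal to rank 41 in Model, and Lcn2 from rank 1408 to rank 15. Con had the order of Cal, with Lrg1 at 309, Lcn2 at 19.7 and Saa3 at 0.129 per kilobase on the scale of its own table, whose median was 83.4.

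The spread among replicates was shared in Cal but not in Model. Cal 1 was the lowest and Cal 2 the highest Cal library for Saa3, Lcn2 and Lrg1 alike. Over all listed genes of that table Cal 1 was the lowest of its group in 34.8% and Cal 2 the highest in 30.6%. In Model a different library was highest for each gene, Model 1 for Saa3, Model 2 for Lcn2 and Model 3 for Lrg1. Among these 3 genes in the Cal and Model libraries, the SD relative to the mean was largest for Saa3 in Cal and smallest for Lcn2 in Model.

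The genes with the most similar profiles were sought by the root mean square distance between log2(normalized count + 1) values, each centred on its own mean over the 6 libraries of a table. In the Cal and Model table the 5 genes nearest to Saa3 were Ubd, a ubiquitin-like modifier (distance 0.912), Lcn2 (1.05), Gm10851 (1.10), Ido1, a tryptophan-degrading enzyme (1.37), and Gm4841 (1.39), while the median distance of all listed genes was 4.20. Ubd had 836 ± 414 normalized counts in Model and 1.78 ± 0.814 in Cal. The nearest to Lcn2 were Gm10851 (0.307), the endothelial lipase gene Lipg (0.636), Serpina3g (0.712), Gm37975 (0.744) and Serpina3m (0.815), beside a median of 3.16. Lipg had 1042 ± 433 in Model and 17.5 ± 7.67 in Cal. The nearest to Lrg1 were 4930539E08Rik (0.153), Ackr1, an atypical chemokine receptor of venular endothelium (0.249), the uridine phosphorylase gene Upp1 (0.265), the granzyme gene Gzmb (0.277) and Tmem88b (0.280), beside 1.69. The place of 4930539E08Rik depends on the pseudocount, since it had 12.7 ± 2.30 in Model and 0 in Cal.

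Saa1 was nearest to Wfdc21 (0.216), Pappa (0.287), Gm5483 (0.290), an entry whose symbol had been turned into a date in the file (0.314) and Fgr (0.317). Saa2 was nearest to Csf2rb2 (0.202), Rcan1 (0.256), Inhbb (0.275), Gm9869 (0.286) and Bmp4 (0.295). The profiles of Saa1 and Saa2 rest on 0 or 1 reads in each Cal library. In the table of Cal and Con, the nearest to Saa3 were Gm38357 (0.480), Pfkfb3 (0.539), Fpr1 (0.554), Mt2 (0.556) and Tnip3 (0.595). Saa3 and Fpr1 had 1 read in all Con libraries and Mt2 had 0, so these distances depend on the pseudocount. The hyaluronan synthase gene Has2 (0.209), the transcription factor gene Batf (0.279), Tpbg (0.314), the metalloprotease inhibitor gene Timp1 (0.324) and Gadd45g (0.363) were nearest to Lcn2. Lrg1 was nearest to Pik3r3 (0.0475), Pdlim7 (0.0544), Slc11a2 (0.0690) and Hmga1 (0.0717). No gene named here was among the nearest of the same member in both tables, which list different genes.

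In Model over Cal the listed genomic neighbours moved in both directions, and in Cal over Con all 4 that were listed were higher in Cal. The coordinates are those of the files, in a mouse build that is not named. Saa3 lies on the minus strand at chr7:46711998-46715700, Saa1 on the same strand 24797 bases away and Saa2 on the plus strand 36090 bases away. Saal1, 1318 bases from Saa3, had 110 ± 19.4 normalized counts in Model and 60.7 ± 5.89 in Cal, and its log2 fold change of 0.84 (SE 0.22, adjusted p = 0.00819 by limma with Benjamini-Hochberg adjustment) stayed under the limit. Lcn2 lies at chr2:32384633-32388252 on the minus strand. Its listed neighbours within 100000 bases were lower in Model, with log2 fold changes of -2.21 for Dnm1, a dynamin (adjusted p = 0.000343 by limma), and -0.62 for the mitochondrial carrier Slc25a25 (adjusted p = 0.0104). In Cal over Con Slc25a25 was higher in Cal, with 1386 ± 92.3 normalized counts against 210.1 ± 37.4 in Con (log2 fold change 2.73, SE 0.14, adjusted p = 2.75e-06 by limma), and Dnm1 was not listed. Lrg1 lies at chr17:56119678-56122001 on the minus strand. Of its listed neighbours, the lipid droplet gene Plin4, 9875 bases away, had a log2 fold change of 0.88 in Model over Cal (adjusted p = 0.00774 by limma) and of 0.60 in Cal over Con (adjusted p = 0.00615). Tnfaip8l1, 40476 bases away, had -1.54 (adjusted p = 0.00122 by limma) and 1.30 (adjusted p = 0.00194). Plin5, another lipid droplet gene and the nearest at 2082 bases, was listed in Cal over Con only, with 0.46 (adjusted p = 0.00577 by limma).

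Other positive acute-phase proteins moved mostly in the direction of the members. Of 53 such genes, 33 were listed in Model over Cal, of which 29 were called as higher and 1 as lower, with a median log2 fold change of 2.64 beside 0.52 for all listed genes. Of all listed genes 31.6% were called as higher and 28.4% as lower. The largest called differences were those of the serine protease inhibitors Serpina3m (104 ± 9.80 in Model and 1.25 ± 1.44 in Cal, log2 fold change 5.75, SE 0.50, adjusted p = 0.000195 by limma) and Serpina3g (1869 ± 428 and 47.3 ± 28.3, 5.49, SE 0.52, adjusted p = 0.000244). They were followed by the chitinase-like gene Chil3 (114 ± 39.5 and 1.84 ± 1.66, 5.42, SE 0.47, adjusted p = 0.000195). Serpina3m and Chil3 had 4 and 6 reads in all Cal libraries, and their log2 fold changes were 7.27 and 6.14 with a pseudocount of 0.1 and 3.34 and 3.35 with a pseudocount of 10. Without Cal 1 the value of Serpina3g was 4.85. Reads of the Serpina3 genes may be split among near-identical copies. Several of these copies were called as higher in both comparisons, so the counts of called genes may hold the same signal more than once. The single gene called as lower was Tnfaip6, which codes for a hyaluronan-binding protein (192 ± 52.6 and 474 ± 84.7, log2 fold change -1.32, SE 0.24, adjusted p = 0.00202 by limma). Under quantile normalization the list had 27 called as higher and 3 as lower.

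In Cal over Con 14 of the 53 genes were listed, of which 12 were called as higher and 0 as lower, and their median was 3.17 beside 0.37 for all listed genes. Of all listed genes 18.0% were called as higher and 10.9% as lower. The leading genes were Ptx3, a long pentraxin (2300.3 ± 1205 in Cal and 16.6 ± 6.28 in Con, log2 fold change 6.93, SE 0.42, adjusted p = 5.54e-06 by limma), the interleukin 1 antagonist gene Il1rn (log2 fold change 5.09, SE 0.36, adjusted p = 1.22e-05) and Serpina3f (4.62, SE 0.64, adjusted p = 0.000549). Without Cal 1 the value of Serpina3f was 5.29. In Model over Cal the log2 fold change of Ptx3 was 2.40. Of 15 negative acute-phase proteins, which fall in plasma during the response, only Igf1 was listed, with a log2 fold change of -2.26 in Model over Cal (adjusted p = 0.000359 by limma) and -0.57 in Cal over Con (adjusted p = 0.0118), the latter under the limit of 1.

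**Figure D2:**
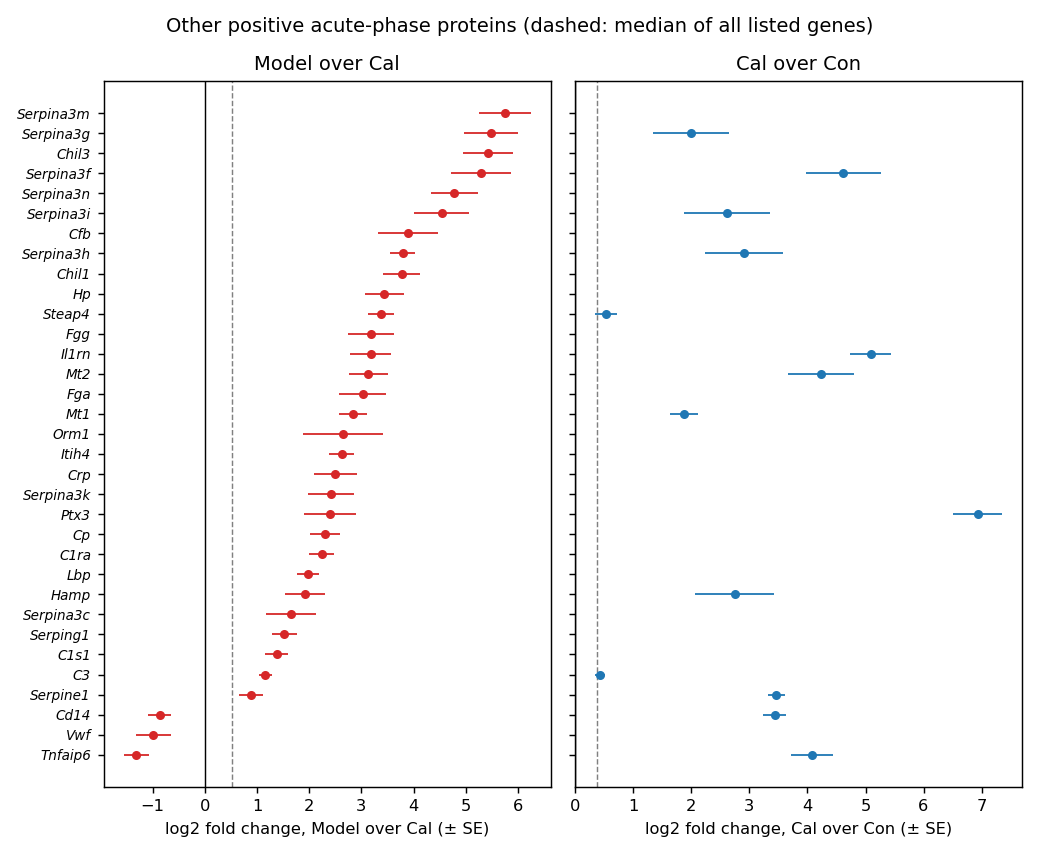
Log2 fold changes with SE (limma, horizontal axis) of 33 positive acute-phase genes other than the members, in Model over Cal at left and, for the 14 of them listed there, in Cal over Con at right, ordered by Model over Cal. Dashed lines mark the median of all listed genes, 0.52 and 0.37, and 30 of the 33 genes lie above 0 at left and all 14 at right.

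The cytokines that induce the acute phase did not follow one pattern across the 2 comparisons. Of 37 inducing cytokines and receptors, 9 were listed in Cal over Con and 8 were called as higher, beside 18.0% of all listed genes. Their median log2 fold change was 5.79. Il6 had 518 ± 246 normalized counts in Cal against 1 read in all Con libraries, a 1596-fold read ratio with a counting interval of 286 to 63069. Il1a had a mean of 279 normalized counts in Cal and 1.57 ± 1.93 in Con (adjusted p = 2.22e-05 by limma). Il1b was higher by 6.55 and Tnf by 5.79 on the log2 scale (adjusted p = 3.55e-06 and 1.93e-05 by limma). Csf3, the granulocyte growth factor, had no read in Con and was at least 141-fold higher in Cal, against 3 reads over the group. In Model over Cal 18 genes of the list were listed, 12 called as higher and 2 as lower, beside 31.6% and 28.4% of all listed genes. The 2 lower ones were Il1b (368 ± 123 in Model and 1439 ± 129 in Cal, log2 fold change -2.02, SE 0.26, adjusted p = 0.000623 by limma) and Tnf (127 ± 38.1 and 532 ± 195, -2.04, SE 0.31, adjusted p = 0.00115).

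The higher genes of that list in Model over Cal were led by Csf3 (log2 fold change 4.09), the decoy receptor gene Il1r2 (3.66) and the granulocyte growth factor receptor gene Csf3r (2.74), with adjusted p from 0.000593 to 0.00218 by limma. Il1r2 and Csf3r are also neutrophil markers. Without Cal 1 the values of Csf3 and Il1r2 were 3.49 and 2.86, and without Cal 2 that of Il1r2 was 4.25. The receptor genes Il6ra (385 ± 49.7 in Model and 88.6 ± 24.1 in Cal, log2 fold change 2.13) and Il1r1 (827 ± 95.8 and 325 ± 110, 1.40) were also called as higher (adjusted p = 0.000346 and 0.00208 by limma). The shared receptor gene Il6st had a log2 fold change of 0.74, under the limit, and of 0.053 under quantile normalization. Il6 itself was not listed in that table.

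Transcription factors and signalling genes of the acute phase were called as higher in 23 of 29 listed genes in Cal over Con and in 9 of 17 in Model over Cal, with 0 and 1 called as lower, of 44 in the list. Of all listed genes, 18.0% in Cal over Con and 31.6% in Model over Cal were called as higher, and 10.9% and 28.4% as lower. Nfkbiz, which codes for an NF-kB cofactor needed for Lcn2 induction, had 4150 ± 873 normalized counts in Cal and 90.7 ± 30.4 in Con (log2 fold change 5.53, SE 0.23, adjusted p = 9.75e-07 by limma). The feedback inhibitor genes Tnfaip3 and Socs3 were higher in Cal over Con by 5.71 and 5.12, Cebpd by 2.77 and Cebpb by 1.65 on the log2 scale, with adjusted p from 2.75e-06 to 0.00012 by limma. Stat3 had 8933 ± 1107 in Model and 3010 ± 580 in Cal, and was higher by 1.58 on the log2 scale (SE 0.19, adjusted p = 0.000471 by limma), or by 0.90 under quantile normalization. In Cal over Con its log2 fold change was 0.42 with overlapping groups, and -0.050 under quantile normalization, and its adjusted p of 0.0212 by limma rose to between 0.0551 and 0.0716 without Cal 2, Cal 3, Con 2 or Con 3. In Model over Cal Irak3 (3.21), the kinase gene Ikbke (2.94) and the inhibitor gene Socs1 (2.44) led on the log2 scale. Rel, an NF-kB subunit gene, was called as lower there (-1.18, adjusted p = 0.0029 by limma).

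**Figure D3:**
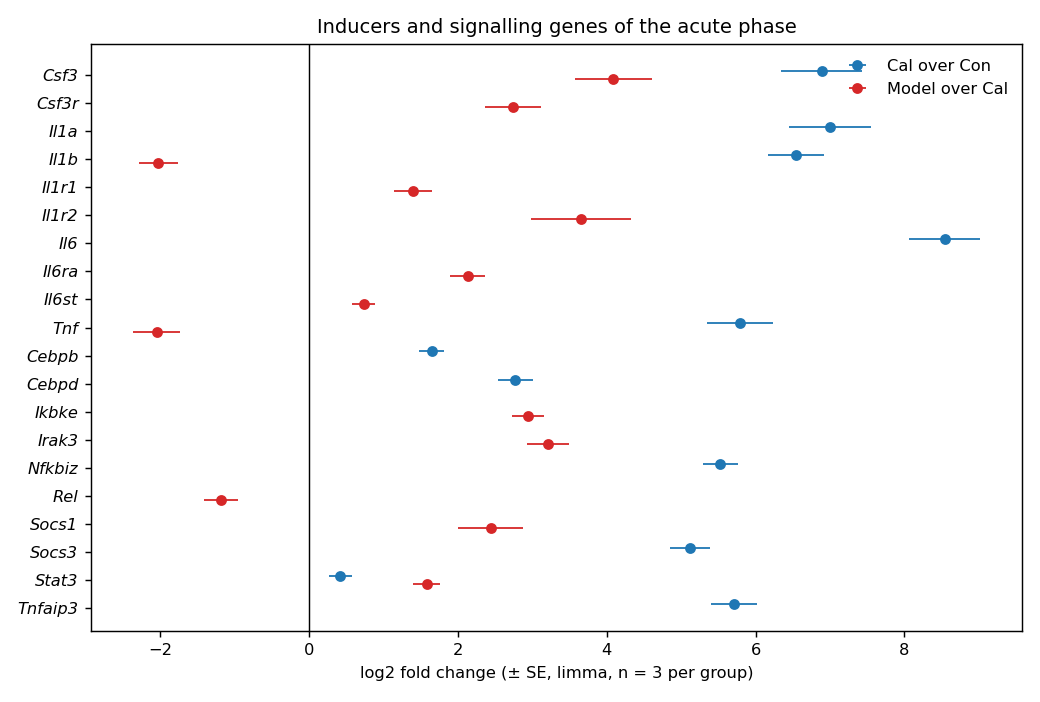
Log2 fold changes with SE (limma, n = 3 per group, horizontal axis) of the named inducers, receptors and signalling genes, in Cal over Con in blue and in Model over Cal in red. Il1b and Tnf lie at 6.55 and 5.79 in Cal over Con and at -2.02 and -2.04 in Model over Cal, and a missing point means that the gene was not listed in that table.

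In Model over Cal, genes for the binding partners and receptors of the members' products were called about as often as the listed genes at large. Of 31 genes, 12 were listed in Model over Cal, with 4 called as higher and 3 as lower, beside 31.6% and 28.4% of all listed genes, a balance that became 3 and 4 under quantile normalization and under median-ratio scaling. The formyl peptide receptor genes Fpr2, whose product binds serum amyloid A, and Fpr1 were higher by 3.83 and 3.58 on the log2 scale, and Smad1 by 1.77 (adjusted p = 8.9e-05, 0.000904 and 0.000201 by limma). Fpr1 and Fpr2 are also neutrophil markers. Lower were Tgfb1 (-2.06), the lipoprotein receptor gene Scarb1 (-1.16, or -0.90 without Model 2) and Slc22a17, which codes for a lipocalin 2 receptor, with 7.03 ± 2.24 normalized counts in Model and 23.4 ± 2.20 in Cal (log2 fold change -1.64, SE 0.33, adjusted p = 0.00306 by limma, or -0.98 with a pseudocount of 10). Tlr4 had a log2 fold change of 0.85 with overlapping groups (adjusted p = 0.0341 by limma), and the adjusted p was 0.0623 under quantile normalization and 0.114 under median-ratio scaling. It was 0.0791 to 0.117 without Model 1, Model 2, Cal 1 or Cal 3, and the log2 fold change was 1.21 without Model 3 and 1.05 without Cal 2.

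In Cal over Con 11 of the 31 genes were listed, with 4 called as higher and 2 as lower, or 3 and 3 under median-ratio scaling. Of all listed genes 18.0% were called as higher and 10.9% as lower there. Tlr2 was higher by 3.69 and Fpr2 by 2.93 on the log2 scale, while the BMP target gene Id1 was lower (-1.81) and so was the ATP-gated channel gene P2rx7 (-1.33), with adjusted p from 1.2e-06 to 0.00198 by limma. Eng, which codes for endoglin, had 3542 ± 490 in Cal and 4957 ± 288 in Con, and its log2 fold change of -0.49 (SE 0.11) was under the limit.

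Of 21 iron handling genes, chosen because lipocalin 2 sequesters iron, 9 were listed in Model over Cal, 5 called as higher and 1 as lower. These 6 called genes of 9 stand beside 60.1% of all listed genes, 31.6% as higher and 28.4% as lower. Nothing about iron handling is read from this count. Lactoferrin (Ltf), also a neutrophil marker, was higher by 2.63, the haem-degrading enzyme gene Hmox1 by 2.39 and the ferroxidase gene Cp by 2.30 on the log2 scale, with adjusted p from 0.000599 to 0.00832 by limma. Without Model 3 the value of Hmox1 was 1.76. The transferrin receptor gene Tfrc was lower, with 675 ± 138 normalized counts in Model and 2705 ± 410 in Cal (log2 fold change -2.01, SE 0.20, adjusted p = 0.00027 by limma). Of 3 listed in Cal over Con only Hamp, the hepcidin gene, was called (2.75, adjusted p = 0.0062 by limma), beside 18.0% of all listed genes called as higher. The value of Hamp was 1.99 without Con 2.

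The listed neutrophil markers were higher where the members were higher, but few were listed in Cal over Con. Of 28 neutrophil markers, 20 were listed in Model over Cal and all 20 of these were called as higher, or 19 under quantile normalization, with a median log2 fold change of 2.99. Of all listed genes 31.6% were called as higher there. Their summed normalized counts were 3573 to 3618 in Model and 471 to 798 in Cal. The list shares Chil3 and Hp with the acute-phase list, Csf3r and Il1r2 with the inducers and their receptors, Fpr1 and Fpr2 with the binding partners, and Ltf with the iron handling genes. In Cal over Con only 4 of the 28 were listed. These 4 were called as higher, beside 18.0% of all listed genes, with sums of 77.4 to 229 in Cal and 16.8 to 29.5 in Con. Cal 1 had the lowest sum of its group in both tables, as it also had for the acute-phase, signalling, binding partner, iron, endothelial and adipocyte lists. Cal 3 had the highest neutrophil sum, whereas Saa3, Lcn2 and Lrg1 were highest in Cal 2. Among defining markers S100a8 had 208 ± 38.3 in Model and 37.0 ± 21.8 in Cal, Mpo had 12 reads in Model and 0 in Cal, and Ly6g and Elane were not listed. The part of neutrophils in the members' levels was not tested.

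Of 18 hepatocyte markers 3 were listed in Model over Cal, with summed counts of 79.9 to 92.7 in Model and 27.3 to 42.4 in Cal, and none was listed in Cal over Con. The fibrinogen genes Fgg and Fga had no read in Cal and were at least 9.52-fold and 7.94-fold higher in Model, against 3 reads over the group. Alb, Apoa1 and Ttr, the defining markers, were not listed. Of 18 macrophage and monocyte markers 13 were listed in Model over Cal, 5 called as higher and 6 as lower. For this and the other marker counts of that comparison, the shares of all listed genes were 31.6% and 28.4%. The higher ones were led by Ly6c2 (log2 fold change 5.33), Plac8 (5.09) and Fcgr1 (2.99). Ly6c2 and Plac8 had 22 and 28 reads in all Cal libraries. The lower ones were led by Cx3cr1 (-4.77), Cd163 (-1.66) and C1qc (-1.62). The sum of the 13 genes was lower in Model (4313 to 5905) than in Cal (8842 to 10025). Lyz2, the most abundant of them, had means of 1674 in Model and 3930 in Cal. Endothelial markers had 3 called as higher and 6 as lower of 13 listed, with 2 and 10 under quantile normalization and 3 and 9 under median-ratio scaling. Their sum was 12963 to 16759 in Model and 24836 to 26994 in Cal. The adhesion gene Sele made up much of this difference, with means of 1488 in Model and 6309 in Cal. The 3 called as higher were Ackr1, Selp and Robo4. Fibroblast markers had 0 and 4 of 7, with 0 and 6 under quantile normalization and 0 and 5 under median-ratio scaling, and adipocyte markers 0 and 2 of 3. Between Cal and Con, endothelial markers had 5 called as higher and 2 as lower of 12 listed, beside 18.0% and 10.9% of all listed genes. Their sums were 50767 to 60541 in Cal and 22937 to 26754 in Con, and adhesion genes made up much of this difference. Icam1 had a mean of 22562 in Cal and 310 in Con, Vcam1 8364 and 511, and Sele 7056 and 37.1. Only 6 of the 12 were higher in Cal, and Pecam1, Cdh5, Kdr, Tek, Egfl7 and Emcn were lower. In Cal over Con macrophage and monocyte markers had 1 and 2 of 5, fibroblast markers 0 and 1 of 5, and the 1 listed adipocyte marker was not called. Cardiomyocyte markers, the check on the labelled tissue, reached summed counts of 642765 to 661088 in Cal and 483846 to 595127 in Con over 5 listed genes. Only the natriuretic peptide genes Nppa and Nppb were listed in Model over Cal, so the check hardly covers the Model libraries. Of these 2, 1 (Nppa) was called as higher, and 0 under quantile normalization or median-ratio scaling. The part of these cells in the members' levels was not tested either.

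**Figure D4:**
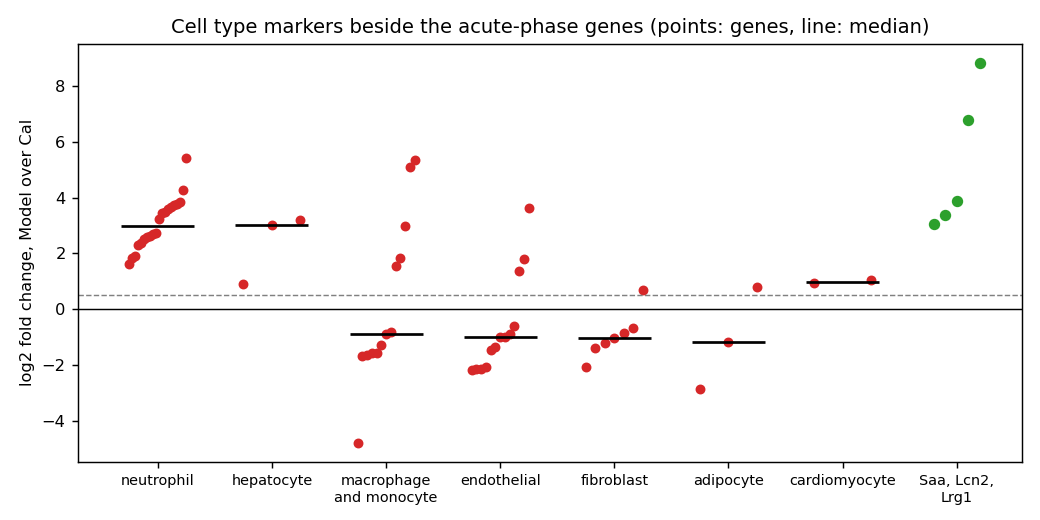
Log2 fold change in Model over Cal (vertical axis) of each listed marker gene, grouped by cell type (horizontal axis), beside the 5 members in green, with black lines for medians and a dashed line for the median of all listed genes at 0.52. All 20 listed neutrophil markers lie above the dashed line, macrophage, endothelial, fibroblast and adipocyte markers have medians below 0, and Saa3 and Lcn2 lie above every marker shown.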

How the data were processed

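Cardiac RNA of 9 rats was sequenced by the authors. The study's methods describe alignment to rat reference sequences and testing with DESeq2, whereas the deposited identifiers are mouse Ensembl genes, and the submitters' processing notes name Bowtie 0.12.2 and the mouse builds mm8 and mm9 without a role. The deposited signal of each sample column is a count over the size factor of its library, set by the authors separately in each table. Whole reads were recovered for 100% of values (tolerance 0.01). Columns of mean values were used only to check headings, the deposited gene length served for levels per kilobase, and the authors' fold changes and p-values were not used. No column of another sample was present.

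Libraries were grouped by sample column heading. Each table was fitted on all its genes with limma 3.58.1 in R 4.3.3 (trended prior) on log2(normalized count + 1), without a filter on low values, with Benjamini-Hochberg adjustment of p-values within a table. The planned wording assumed normalized values, which were found to be whole reads over size factors. The p-values measure the spread between 3 animals per group among genes already selected by the authors, so they are too favourable. Total depth is unknown. The members, the 13 gene lists and the comparisons were chosen with earlier results of these data known. Named genes are the members, the 5 genes nearest to each in profile, up to 3 highest and 3 lowest called genes of each list, and a fixed set of inducers and receptors. Genes named as neighbours and the fold bounds follow their stated windows, and Mpo, S100a8 and the Ptx3 value in Model over Cal were added after their values were seen. A gene covered by the rule for nearest genes is not reported here.

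Replicate pairs differed by 10.9 to 80.7 times the noise of sampling (chi-square over its degrees of freedom), and none was a duplicate. Replicate numbers belong to different animals and do not pair the libraries. Each fit was repeated with quantile normalization, median-ratio scaling, pseudocounts of 0.1 or 10, only genes whose mean reached 10, edgeR 4.0.16 and DESeq2 1.42.0 on recovered reads, a replicate block and leaving out each library. Intervals came from scipy 1.17.1. Scripts were tested on simulated data.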

Additional observations from a re-analysis of the deposited data

How the results depend on the processing

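All members kept their direction under every alternative in which they were fitted. Saa1 and Saa2 fell under the filter on a mean of 10 and were left out of that run. The log2 fold change in Model over Cal of Saa1 was 5.82 and 1.10 with pseudocounts of 0.1 and 10, 4.86 with edgeR and 5.23 with DESeq2, and that of Saa2 was 5.45, 0.94, 4.59 and 4.96. Saa3 in Cal over Con was 6.98, 1.95, 6.23 and 6.59 under the same settings and 3.56 under quantile normalization. These genes had few reads in one group, and by construction the pseudocount or prior sets the size of such a difference. Lrg1 was 3.29 under quantile normalization and 3.56 under median-ratio scaling in Model over Cal, and 0.43 and 0.49 in Cal over Con. Setting Con beside Model by shared reads gave 8.38 for Lcn2 and 3.79 for Lrg1. A pseudocount of 0.1 or 10 moved 27 of the 81 named results by over 1.5 times, and all kept their side of the adjusted p threshold. Slc22a17 (-0.98), Fgg (0.87) and Fga (0.79) came under the log2 limit of 1 with a pseudocount of 10. The others at that setting include Il1r2 (2.37), Fpr1 (2.82) and Ltf (1.16) in Model over Cal, and Ptx3 (6.31), Il1rn (3.96), Serpina3f (3.01), Il1b (5.91), Tnf (4.86), Fpr2 (1.47) and Hamp (1.18) in Cal over Con. Stat3 in Cal over Con turned to -0.050 under quantile normalization. The cause of these shifts was not tested. Leaving out each library gave 8.19 to 9.25 for Saa3, 6.31 to 7.08 for Lcn2, 3.69 to 3.97 for Lrg1, 3.18 to 3.69 for Saa1 and 2.84 to 3.43 for Saa2 in Model over Cal, and 4.10 to 5.16, 2.13 to 2.90 and 0.66 to 0.89 for Saa3, Lcn2 and Lrg1 in Cal over Con. Calls ranged from 2344 to 2704 and from 679 to 775. With the replicate block 2574 and 713 genes were called, against 2575 and 712 without it, and all 81 named results kept their call. The correlations of same-numbered libraries lay between -0.14 and 0.11. Depth limits the Cal levels of Saa1 and Saa2 and the Con level of Saa3, which rest on 0 or 1 reads per library.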
